A study of Mus musculus with 12 samples.

Results

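The 14-3-3 family of the mouse was followed through breast tumours of MMTV-PyMT mice that carried either the Bad3SA allele or wild-type Bad. Its members were taken by symbol from the deposited count table: Ywhab, Ywhae, Ywhag, Ywhah, Ywhaq, Ywhaz and Sfn, 7 of the 55487 genes listed, and all 7 passed the filter on low counts that left 18019 genes for testing. None of the 7 transcripts differed detectably between the genotypes, and what set tumours apart within the family was its make-up: one dominant transcript, one nearly constant one, 4 that varied together and one, Sfn, that varied widely from tumour to tumour.

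14-3-3 proteins are dimeric adaptors that hold on to phosphorylated serines and threonines of many client proteins and so keep them in place, shield them or hold them inactive. BAD, a pro-apoptotic BH3-only protein, is one of these clients: phosphorylated by survival kinases, it is bound in the cytosol by 14-3-3, and unphosphorylated BAD is free to occupy BCL2 and BCL-XL at mitochondria. Ywhab, Ywhae, Ywhag, Ywhah, Ywhaq and Ywhaz encode the beta, epsilon, gamma, eta, theta and zeta proteins, which are found in most tissues, while Sfn encodes stratifin or 14-3-3 sigma, an epithelial form induced by p53 after DNA damage and abundant in stratified epithelium.

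The tumours came from 6 PyMT-Bad3SA and 6 PyMT-Bad+/+ mice, all of strain C57BL/6J and each library from a separate mouse. All 12 mice carried the MMTV-PyMT transgene, in which a mammary tumour virus promoter places polyoma middle T antigen in the mammary epithelium. In BAD encoded by the Bad3SA allele, alanines stand in for the serines that kinases phosphorylate. The labels name the allele only, so the cells that carry it and the form of the control allele beyond wild type are not described further here. End-point age averaged 27.5 ± 2.85 weeks in Bad3SA mice (range 22.857 to 31.143) and 24.0 ± 1.93 weeks in Bad+/+ mice (range 21.286 to 27.143; SD, n = 6 each). The means lay 3.40 weeks apart (p = 0.0433, two-sided exact permutation test).

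Total counts ran from 58096172 to 83296370 per tumour, and 3 counts, taken as the floor of detection, corresponded to at most 0.0544 CPM (counts scaled to library size with TMM), far below the level of any member. Luminal epithelial markers (16 genes) summed to between 6882 and 9425 CPM in Bad3SA tumours and between 7512 and 8755 CPM in Bad+/+ tumours, and none of them was at 0 in all tumours. Bad3SA tumours 4, 5 and 6 stood apart from the other 9 on the second principal component, which held 19.9% of the variance, at -52.8, -65.8 and -66.5 where the other tumours lay above 0. The source of that separation is not given in the labels. RNA was measured in whole tumours, so fewer cells of a type and less RNA per cell cannot be told apart.

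The contact between the 2 sides of the BAD switch can be read in the coding sequence. Each 14-3-3 protein grips the phosphate of its client through a basic pocket that includes a neighbouring arginine and tyrosine, and the stretches that encode this pair are shown for all 7 members, since the pair is what they share as BAD-binding proteins. The sequences are from GENCODE release M21 transcripts on GRCm38, 5′ to 3′ along the coding strand. The arginine and tyrosine codons are in capitals, and coordinates are from the same annotation.
Ywhab (chr2:164014078-164014107, plus strand, residues 129 and 130): ggagactactttAGGTATctttctgaagtt
Ywhae (chr11:75756821-75756850, plus strand, residues 130 and 131): ggggactaccacAGGTATctggctgagttt
Ywhag (chr5:135911328-135911357, minus strand, residues 132 and 133): ggggactattacCGTTACctggcagaagtg
Ywhah (chr5:33026836-33026865, plus strand, residues 132 and 133): ggcgattactacCGCTACctggcagaggtg
Ywhaq (chr12:21398263-21398292, minus strand, residues 127 and 128): ggagattatttcCGGTATcttgctgaagta
Ywhaz (chr15:36776268-36776297, minus strand, residues 127 and 128): ggtgactactacCGTTACttggccgaggtt
Sfn (chr4:133601368-133601397, minus strand, residues 129 and 130): ggtgactactacCGCTACctagccgaggtg

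On the other side are the serines of BAD that the Bad3SA allele removes. Their codons are in capitals in the reference Bad transcript, each within 27 bases of coding sequence. A count per gene does not show single codons, so the genotype labels were not checked at them.
Bad serine 112 (chr19:6950663-6950689, plus strand): agtcgccacagtTCGtacccagcgggg
Bad serine 136 (chr19:6950735-6950761, plus strand): ggacgctcgcgtTCGgctccccccaat
Bad serine 155 (chr19:6950792-6950818, plus strand): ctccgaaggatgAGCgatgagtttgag

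The 7 coding sequences run from 735 to 765 bases and encode 245 to 255 residues. Translated from the same transcripts, Ywhag and Ywhah were the most alike at 87.0% protein identity, closely followed by Ywhab and Ywhaz at 86.9%. Ywhae and Sfn were the least alike at 60.1%. The coding identity between members was at most 79.0%. Only annotated pseudogenes were counted as near-identical copies. Ywhaq has 7 pseudogene copies, whose counts together came to 1.34% of its own, the closest being Gm2423 at 99.7% identity. Among these 7, Ywhaq-ps1 was taken by its name and has no measured identity. Ywhaz has Gm4202 at 99.9% identity with counts of 0.97% of its own. These shares count reads assigned to the copies, and reads that fit both could have been dropped or divided, which was not tested. Ywhaq also shares 435 bases at 100% identity with an annotated transcript of Cdk5rap2, which had 40842 counts over the 12 tumours where Ywhaq had 135422. How reads from shared sequence were assigned was not tested. Ywhae and Ywhaq overlap the noncoding genes Gm26836 and Gm4419 on the opposite strand and Bad overlaps Gpr137. Whether the counting used strand is not stated in the labels or headers, so reads of such pairs could not be told apart.

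Of the 5 members with an entry in the RefSeq promoter table (GRCm38.p6; 250 bases before to 50 after the start), Ywhae, Ywhag, Ywhah and Ywhaq had promoters rich in CpG. Their ratio of observed to expected CpG lay between 0.892 and 1.032, above that of 86.7% to 95.7% of the 32851 promoters, whose median was 0.384. The Sfn promoter was of another kind, with 4 CpG, a ratio of 0.186, and 26.7% of promoters below it. Ywhab and Ywhaz were not analysed in this respect.

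Ywhae was the leading 14-3-3 transcript in all 12 tumours. Its gene lies on chromosome 11 from 75732869 to 75765845. Per kilobase of annotated exon, which allows genes of different length to be set side by side, it averaged 355 ± 57.7 CPM per kb over the 12 tumours and made up 47.6% of the summed family level. The lowest, median and highest tumours had 771, 861 and 1151 CPM in Bad3SA and 712, 942 and 1140 CPM in Bad+/+. The 2 ranges overlapped almost fully, 5 of 6 tumours of each genotype lying within the range of the other. The log2 fold change was -0.03 (SE 0.14, 95% interval -0.34 to 0.27, edgeR adjusted p = 0.920).

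Ywhab came next and was the least variable member. It lies on chromosome 2 from 163994960 to 164018588, and its protein is among the 14-3-3 forms that bind RAF kinases. Its level was 97.1 ± 7.81 CPM per kb, or 13.1% of the family, and ranked between 2 and 3 in every tumour. In Bad3SA it ran from 292 CPM through a median of 320 to 376 CPM, and in Bad+/+ from 301 through 340 to 350 CPM. All 6 Bad+/+ tumours lay inside the Bad3SA range. The log2 fold change was -0.03 (SE 0.09, 95% interval -0.23 to 0.17, edgeR adjusted p = 0.887), so the interval ran from 0.855-fold to 1.122-fold. Over the 12 tumours the highest level was 1.29 times the lowest, and the SD of log2 CPM was 0.116, a spread below which only 1.25% of the tested genes fell.

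**Figure D1:**
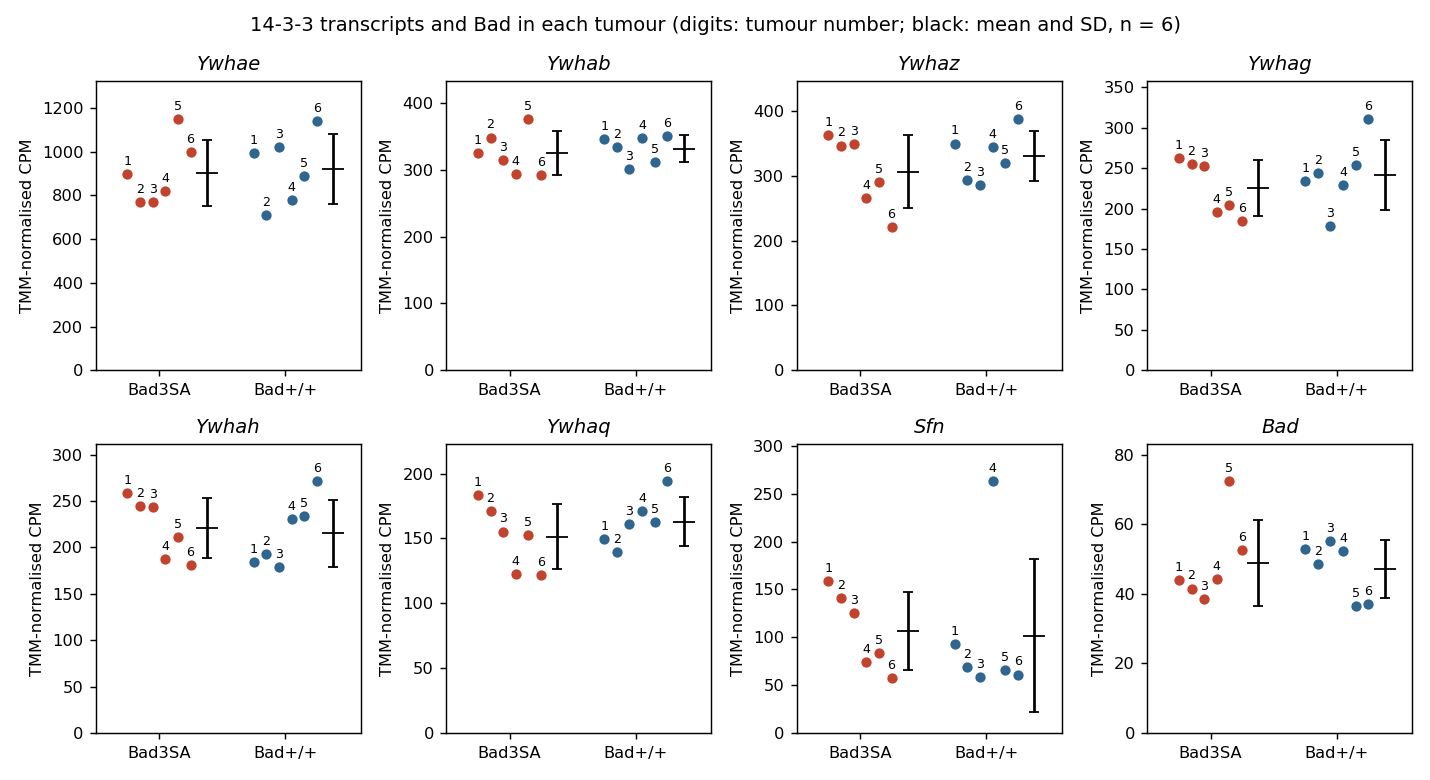
TMM-normalised CPM (vertical axes, from 0) of the 7 family members and Bad in each tumour, with Bad3SA tumours left in red and Bad+/+ tumours right in blue, digits giving the tumour number and black marks the mean and SD (n = 6). Every pair of groups overlaps, Ywhab is tightly gathered between 292 and 376 CPM, and Sfn reaches 263 CPM in Bad+/+ tumour 4 alone.

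Ywhaz, the zeta form, lies on chromosome 15 from 36770770 to 36796929 and averaged 77.3 ± 11.6 CPM per kb. It ran from 221 CPM through a median of 319 to 363 CPM in Bad3SA, and from 286 through 332 to 388 CPM in Bad+/+. Bad3SA tumours 4 and 6 lay below every Bad+/+ tumour, at 265 and 221 CPM. The other 4 lay within the Bad+/+ range, and the log2 fold change was -0.11 (SE 0.13, edgeR adjusted p = 0.688).

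Ywhah, on chromosome 5 from 33018816 to 33027966, encodes the eta form. It ran from 181 CPM through a median of 227 to 259 CPM in Bad3SA, and from 179 through 211 to 271 CPM in Bad+/+. All 6 Bad3SA tumours fell inside the Bad+/+ range, and the log2 fold change was 0.04 (SE 0.13, edgeR adjusted p = 0.900).

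Ywhag, on the same chromosome from 135908409 to 135934616, encodes the gamma form. It had 184, 229 and 263 CPM at the lowest, median and highest Bad3SA tumour, and 178, 239 and 311 CPM in Bad+/+. Again all 6 Bad3SA tumours fell inside the Bad+/+ range (log2 fold change -0.10, SE 0.14, edgeR adjusted p = 0.737).

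Ywhaq, on chromosome 12 from 21390071 to 21417637, encodes the theta form. It ran from 122 CPM through a median of 154 to 184 CPM in Bad3SA, and from 139 through 162 to 194 CPM in Bad+/+. Bad3SA tumours 4 and 6 again lay below the Bad+/+ range, and the log2 fold change was -0.11 (SE 0.12, edgeR adjusted p = 0.671).

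Sfn was the member with the widest spread. It lies on chromosome 4 from 133600556 to 133602168 and has a single annotated transcript of 1613 bases. In Bad3SA it ran from 57.8 CPM through a median of 104.5 to 158.5 CPM, and in Bad+/+ from 58.6 through 67.1 to 263 CPM. The Bad3SA tumours split, with 158.5, 140.6 and 125.3 CPM in tumours 1, 2 and 3 and 73.7, 83.6 and 57.8 CPM in tumours 4, 5 and 6. In Bad+/+, 5 tumours lay between 58.6 and 93.2 CPM and tumour 4 stood alone at 263 CPM. The log2 fold change was 0.07 (SE 0.39, 95% interval -0.77 to 0.91, edgeR adjusted p = 0.941), and without Bad+/+ tumour 4 it was 0.63 (SE 0.26, adjusted p = 0.237), which did not pass. The interval with all tumours ran from 0.586-fold to 1.877-fold. The SD of log2 CPM was 0.691, more than that of 76.0% of tested genes, against 0.116 to 0.237 for the other 6 members.

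Taking the family as a whole, 0 of 7 members passed at an adjusted p under 0.05 in edgeR's quasi-likelihood test, where 1.38% of all genes tested did. At an unadjusted p under 0.05 none of the 7 passed either, against 2920 of the 18019 genes. DESeq2 and limma voom called none of the 7, and called 863 and 579 genes in all. The median log2 fold change over the members was -0.03, from -0.11 to 0.07, and over all genes tested it was 0.0033. In the authors' deposited table, whose fold changes run as Bad+/+ over Bad3SA, the members had adjusted p between 0.738 and 0.961. The summed family level was 738 ± 70.7 CPM per kb in Bad3SA and 756 ± 83.4 CPM per kb in Bad+/+ (SD, n = 6 each).

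**Figure D2:**
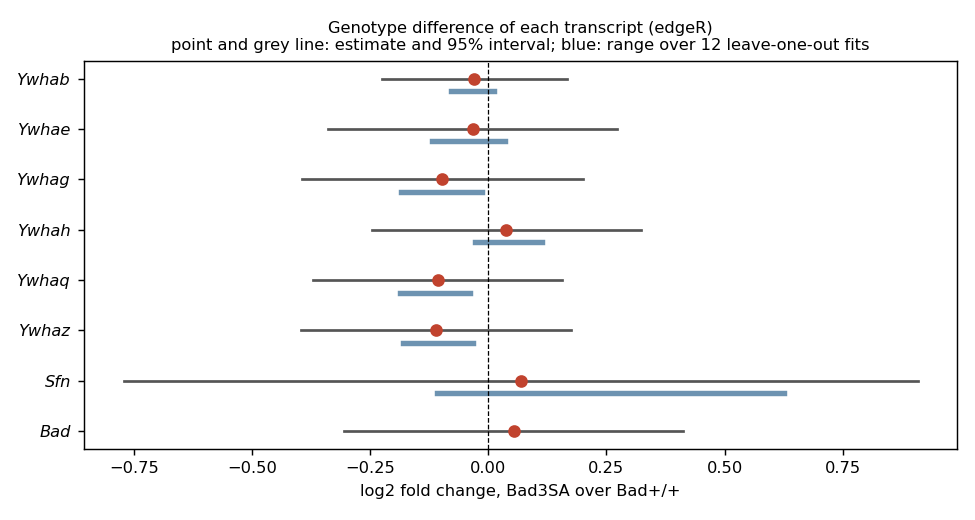
Log2 fold change of each member and of Bad (horizontal axis, Bad3SA over Bad+/+), with red points for edgeR estimates, grey lines for 95% intervals and blue bars for the range over the 12 fits that each left out a single tumour. Every interval spans 0, that of Ywhab is the narrowest (-0.23 to 0.17) and that of Sfn the widest (-0.77 to 0.91), and the blue bar of Sfn reaches 0.63.

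Bad itself, the client shared by the family in this design, had 38.5, 44.0 and 72.3 CPM at the lowest, median and highest Bad3SA tumour and 36.4, 50.4 and 55.3 CPM in Bad+/+ tumours. Its groups overlapped, tumour 5 of Bad3SA lying above every Bad+/+ tumour (log2 fold change 0.05, SE 0.17, edgeR adjusted p = 0.889). A change of codons need not alter the level of a transcript, so this value checks no genotype label. Per kilobase, the family sum exceeded Bad by a ratio of 40.1 ± 7.93 in Bad3SA and 42.5 ± 10.8 in Bad+/+ (SD, n = 6 each). The ratio ran from 29.2 to 47.8 in Bad3SA and from 33.4 to 60.3 in Bad+/+. The summed transcripts of the binding partners thus stood well above that of BAD in all 12 tumours. Bad was scaled to 2558 bases of exon, and its longest transcript has 1533 bases. The ratio was not computed by longest transcripts. It is a ratio of RNA, and protein was not measured here.

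Below Ywhae the order of the levels was only partly fixed. Ywhab exceeded Ywhaz in all 12 tumours per kilobase, and Ywhah exceeded Ywhaq in 11 of 12 and Ywhaq exceeded Ywhag in all 12. Sfn had no fixed place: it ranked anywhere between 2 and 7, was below Ywhaz in 9 of 12 tumours and above Ywhah in 5 of 12, and so did not differ from Ywhah beyond its spread. Mean levels were 64.6 CPM per kb for Sfn, 58.8 for Ywhah, 51.3 for Ywhaq and 42.5 for Ywhag. When each gene was scaled to its longest transcript, Ywhae still held 46.1% and Ywhab 11.6% of the family, but Ywhah rose to 10.6%, above Ywhaz at 10.3%, and Sfn moved to the last place at 6.79%.

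The make-up overlapped between the genotypes. The share of Ywhae was 47.7% ± 6.85 in Bad3SA and 47.5% ± 6.13 in Bad+/+, and that of Ywhab 13.04% ± 0.735 in Bad3SA and 13.1% ± 1.33 in Bad+/+. The share of Sfn was 8.88% ± 3.03 in Bad3SA and 8.21% ± 5.92 in Bad+/+ (SD, n = 6 each). It ran from 5.22% to 12.1% in Bad3SA and from 4.34% to 20.1% in Bad+/+, the highest value being again that of tumour 4.

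**Figure D3:**
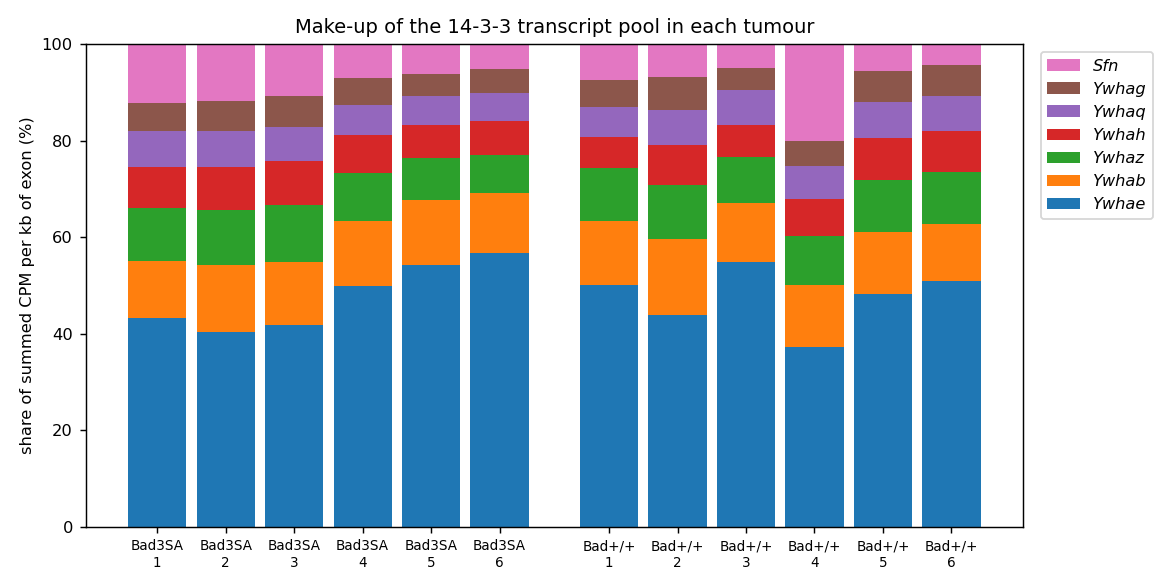
Share of each member in the summed CPM per kb of exon of the family (vertical axis, percent) in each tumour, Bad3SA tumours left and Bad+/+ tumours right. Ywhae holds between 37.3% and 56.6% everywhere, and the share of Sfn is 20.1% in Bad+/+ tumour 4 and 10.8% to 12.1% in Bad3SA tumours 1 to 3, against 4.34% to 7.47% in the other 8 tumours.

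The 4 transcripts Ywhag, Ywhah, Ywhaq and Ywhaz went up and down together across tumours. Of the 21 pairs among the 7 members, the 6 pairs within this quartet were those with a Benjamini-Hochberg adjusted p under 0.05 over the 21 pairs, by Pearson's r and by Spearman's rho (log2 CPM, 12 tumours, two-sided permutation test with 100000 resamples). The closest pair was Ywhaq with Ywhaz, at r = 0.859 (adjusted permutation p = 0.00483) and rho = 0.727 (adjusted permutation p = 0.0363). The loosest was Ywhag with Ywhaq, at r = 0.691 (adjusted permutation p = 0.0485) and rho = 0.720 (adjusted permutation p = 0.0363). Ywhag and Ywhah, the pair most alike in protein, stood at r = 0.836 (adjusted permutation p = 0.00616), and Ywhab and Ywhaz, nearly as alike, at r = 0.571 (adjusted permutation p = 0.156).

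These relations were present within each genotype, unequally. Within Bad3SA the 6 values of r lay between 0.902 and 0.982, and within Bad+/+ between 0.436 and 0.807 (n = 6 each, given as values). Leaving out the 2 tumours farthest from the median of the first gene gave r between 0.692 and 0.877. Leaving out Bad3SA tumours 4, 5 and 6, the tumours apart on the second principal component, gave r between 0.453 and 0.792 over 9 tumours, Ywhag with Ywhaq being the lowest. In those 3 tumours Ywhag, Ywhah, Ywhaq and Ywhaz were all below their 12-tumour means, by between 0.03 and 0.51 on the log2 scale. These 4 and Sfn, 5 of the 7 members, were higher in each of Bad3SA tumours 1, 2 and 3 than in each of tumours 4, 5 and 6. The same held for 19.6% of all genes tested, so the split was not particular to the family. Whether the members show it more often than other genes was not tested. In Bad+/+ tumour 6 the 4 transcripts of the quartet were all above their means, by 0.30 to 0.43. The part of tumour composition in this pattern was not tested.

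**Figure D4:**
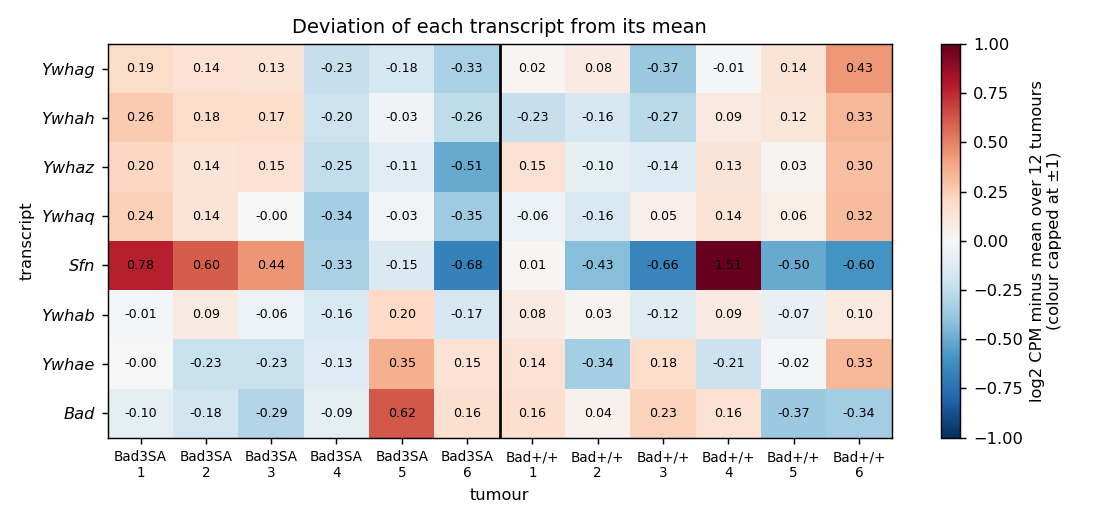
Deviation of log2 CPM from the mean over the 12 tumours (colour, capped at 1 on either side, with values printed) for each member and Bad (rows) in each tumour (columns, Bad3SA left of the black line and Bad+/+ right). Ywhag, Ywhah, Ywhaz and Ywhaq are above or near their means in Bad3SA tumours 1 to 3 and below in 4 to 6, Sfn follows the same split more strongly, and Sfn in Bad+/+ tumour 4 is 1.51 above its mean.

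Ywhae did not move with the quartet, its r with those 4 lying between -0.143 and 0.161. Sfn went with the quartet within Bad3SA (r 0.937 to 0.989, n = 6) and not within Bad+/+ (r -0.0966 to 0.257, n = 6), and no pooled pair with Sfn passed. That difference between the genotypes was not tested. The Bad3SA values include the split between tumours 1 to 3 and tumours 4 to 6, and r within either part was not computed.

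Against Bad, 7 relations were computed. Ywhag and Ywhah ran opposite to it by rank, at rho = -0.776 and rho = -0.748 (adjusted permutation p = 0.0281 for both), and by Pearson's r at -0.677 and -0.585 (adjusted permutation p = 0.114 and 0.155). The sign held within Bad3SA (r = -0.594 and -0.433) and within Bad+/+ (r = -0.788 and -0.793; n = 6 each), and without Bad3SA tumours 4, 5 and 6 (r = -0.770 and -0.781, 9 tumours). Leaving out the 2 tumours farthest from the median gave r = -0.585 and -0.451. The other 5 members had no relation to Bad that passed, among them Ywhae, whose r was 0.958 within Bad3SA and -0.263 within Bad+/+.

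For each member the 2 genes closest to it in pattern were sought by Pearson's r of log2 CPM over the 12 tumours, among 12198 genes of sufficient level, as a description. For Ywhab, Ptgr1, a prostaglandin reductase gene, is given (r = 0.870). Ywhae was closest to Med19 (r = 0.978), a subunit of the Mediator complex, and Sumo2 (r = 0.970), a ubiquitin-like modifier. Both genes shared the flat genotype comparison of Ywhae, with log2 fold changes of -0.05 and -0.06.

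The quartet had partners outside the family that were closer than its own members. Ywhag was closest to Rpe and Nol8 (r = 0.956 and 0.955), and Ywhah to Mkks and Hmgn1 (r = 0.966 and 0.951). Ywhaq was closest to Gdi2, which encodes a regulator of RAB GTPases, and Ubap1, an endosomal sorting gene (r = 0.960 and 0.950). Ywhaz was closest to Mindy3, a deubiquitinase gene, and Psmd1, a proteasome subunit gene (r = 0.959 for both). Among the 12198 genes ranked by likeness to Ywhaq, Ywhaz stood at rank 58, Ywhah at rank 187 and Ywhag at rank 669. Among those ranked for Ywhag, Ywhaz and Ywhah stood at ranks 192 and 201 and Ywhaq at rank 1057.

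Sfn was closest to Klk14, an epidermal kallikrein protease gene (r = 0.981), and Lypd3, which encodes a surface protein of stratified epithelium (r = 0.960) and is also among the squamous markers used below. Klk14 was at 5.34 CPM in Bad3SA and 9.34 CPM in Bad+/+ on average, and Lypd3 at 18.4 CPM in Bad3SA and 16.7 CPM in Bad+/+. Neither passed (edgeR adjusted p = 0.746 for Klk14 and 0.890 for Lypd3), and Lypd3 was highest in Bad+/+ tumour 4, at 41.7 CPM.

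Squamous keratinocyte markers, 22 genes of stratified epithelium, moved with Sfn in part of the tumours. Their summed level ran from 262 CPM through a median of 451 to 806 CPM in Bad3SA, and from 204 through 395 to 1805 CPM in Bad+/+, with none of the 22 at 0 in all tumours. Bad+/+ tumour 4, highest for Sfn, was highest for 19 of the 22. The keratin gene Krt16 was at 423 CPM there and at most 57.0 CPM elsewhere, and the keratin gene Krt6a at 125 CPM there and at most 25.6 CPM elsewhere. Krt17, the cornified envelope gene Lor and Calml3 were highest in other tumours.

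Over the 12 tumours Sfn and the summed markers had r = 0.752 (permutation p = 0.0122) and rho = 0.497 (permutation p = 0.103) on log2 values. Leaving out the 2 tumours farthest from the median gave r = 0.459, so the relation of the sum rests on those tumours. Without Bad+/+ tumour 4 r was 0.480. The sum weighs markers by level, and Krt17 gave 302 of the 468 CPM in Bad+/+ tumour 6. Single markers (log2 of CPM plus 1, all 12 tumours) had r with Sfn from -0.079 for Lor to 0.964 for Lypd3. Krt17 stood at 0.134, Calml3 at 0.825, Krt16 at 0.910 and Krt6a at 0.932. Within genotypes r was 0.710 in Bad3SA and 0.792 in Bad+/+ (n = 6 each), the latter with tumour 4 included. In Bad+/+ tumours 1, 2, 3, 5 and 6 the sums were 236, 204, 343, 448 and 468 CPM. Sfn, in the same order, was at 93.2, 68.7, 58.6, 65.4 and 61.1 CPM, so it did not rise with the sum there. In Bad3SA, 12 of the 22 markers were higher in each of tumours 1, 2 and 3 than in each of tumours 4, 5 and 6, the split also seen for Sfn and for 19.6% of all genes tested. The part of squamous cells in the level of Sfn was not tested.

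**Figure D5:**
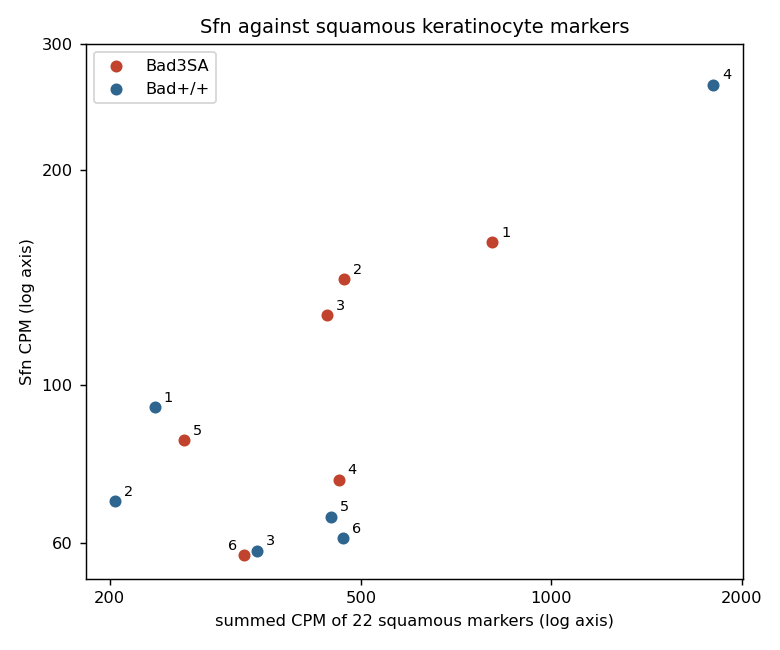
Sfn CPM (vertical, log axis) against the summed CPM of 22 squamous markers (horizontal, log axis) in 12 tumours, Bad3SA in red and Bad+/+ in blue, digits giving the tumour number. Bad+/+ tumour 4 lies at the upper right at 1805 and 263 CPM, Bad3SA tumours 1 to 3 lie above 125 CPM of Sfn, and the other 8 tumours lie between 57.8 and 93.2 CPM of Sfn.

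Of the 10 marker lists, 5 had their highest sum in Bad+/+ tumour 4, namely the squamous, basal and myoepithelial, macrophage, skeletal muscle and neuronal lists, and the other 5 in Bad3SA tumours. Basal and myoepithelial markers (8 genes) summed to between 778 and 1768 CPM in Bad3SA and between 416 and 2104 CPM in Bad+/+, and skeletal muscle markers (8 genes) to between 2.61 and 174 CPM in Bad3SA and between 2.88 and 1282 CPM in Bad+/+, the highest Bad+/+ value being that of tumour 4 in both. Macrophage markers (8 genes) ranged from 359 to 885 CPM in Bad3SA and from 300 to 897 CPM in Bad+/+, again highest in that tumour. T cell markers (8 genes) ranged from 16.4 to 28.7 CPM in Bad3SA and from 14.5 to 18.9 CPM in Bad+/+, with 16.3 CPM in Bad+/+ tumour 4. The fibroblast, endothelial and adipocyte lists were highest in Bad3SA tumours 2, 2 and 5. None of these lists had a gene at 0 in all tumours, and their part in the values of the 14-3-3 genes was not tested.

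None of the known regulators of Sfn differed detectably between genotypes. Of the 6 tested, which include Trp53, the p63 gene Trp63 and the p73 gene Trp73, none passed, where 1.38% of all genes tested did. An unadjusted p under 0.05 was found for 1 of the 6 and for 16.2% of all genes tested. The median log2 fold change of the 6 was -0.14. The smallest p belonged to Brca1, a DNA repair gene, at 16.7 ± 3.50 CPM in Bad3SA and 22.66 ± 5.603 CPM in Bad+/+ (log2 fold change -0.44, SE 0.19, edgeR adjusted p = 0.269). Trim25, a ubiquitin ligase gene whose product degrades stratifin, had 162 ± 9.05 CPM in Bad3SA and 138 ± 27.3 CPM in Bad+/+ (0.23, SE 0.12, edgeR adjusted p = 0.381).

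Other p53 target genes, 18 in number, had a median of -0.16, with 7 above 0 and 11 below. Of all genes tested, 9090 were above 0 and 8929 below. None of the 18 passed, where 1.38% of all genes tested did, and 1 had an unadjusted p under 0.05, where 16.2% did. The smallest p belonged to Aen, an apoptosis-enhancing nuclease gene, at 23.5 ± 1.80 CPM in Bad3SA and 31.7 ± 8.77 CPM in Bad+/+ (-0.43, SE 0.16, edgeR adjusted p = 0.217). Btg2, an antiproliferative gene, followed at -0.33 (SE 0.16, edgeR adjusted p = 0.337).

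Among the partners of BAD and the enzymes that phosphorylate or dephosphorylate it, 23 genes besides Bad itself were tested and none passed, where 1.38% of all genes tested did. An unadjusted p under 0.05 was found for 4 of them and for 16.2% of all genes tested, and their median log2 fold change was -0.09. The 2 with the smallest p are given. Bcl2, whose product is a target of free BAD, ran from 35.2 to 59.4 CPM in Bad3SA and from 55.5 to 71.8 CPM in Bad+/+ (log2 fold change -0.47, SE 0.14, edgeR adjusted p = 0.139). Rps6ka3, which encodes the kinase RSK2, ran from 53.3 to 80.8 CPM in Bad3SA and from 71.8 to 103 CPM in Bad+/+ (-0.42, SE 0.13, edgeR adjusted p = 0.149). The groups overlapped for both genes.

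Further clients of 14-3-3, among them RAF kinases, CDC25 phosphatases, FOXO factors and the Hippo effectors Yap1 and Wwtr1, were tested as 35 genes. None passed, 5 had an unadjusted p under 0.05, where 16.2% of all genes tested did, and the median log2 fold change was -0.07. Tbc1d1, which encodes a RAB GTPase-activating protein held by 14-3-3 after phosphorylation, ran from 42.5 to 51.9 CPM in Bad3SA and from 46.6 to 92.3 CPM in Bad+/+ (-0.57, SE 0.13, edgeR adjusted p = 0.0603). Ksr1, which encodes a scaffold of the RAF to ERK cascade, ran from 30.3 to 37.5 CPM in Bad3SA and from 37.6 to 53.7 CPM in Bad+/+ (-0.42, SE 0.10, edgeR adjusted p = 0.0641). Both missed the threshold, and 1.38% of all genes tested passed it.

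End-point age, which differed between the genotypes, bore no detectable relation to the members. With genotype and age in 1 edgeR model, 0 of 7 members passed for the slope on age, as did 0% of all genes tested, where 1520 genes had an unadjusted p under 0.05 and limma voom also called 0. The slopes of Ywhag, Ywhah, Ywhaq and Ywhaz were all close to -0.04 log2 units per week, that of Ywhae was -0.01 (SE 0.03, edgeR adjusted p = 0.934), and that of Ywhab was 0.01 (SE 0.02, edgeR adjusted p = 0.847). With limma voom the slope of Ywhag was -0.016, that of Ywhah -0.029 and that of Ywhae -0.054 (unadjusted p = 0.0777, limma voom adjusted p = 0.761). Members had adjusted p of 0.624 or more. With age in the model no member differed by genotype, and the estimate of Ywhah was the farthest from 0 among the members at 0.17 (SE 0.16, edgeR adjusted p = 0.905).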

How the data were processed

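Polyadenylated RNA of 12 tumours was sequenced as paired 100 bp reads, per the labels. The authors deposited raw counts per gene, made on GRCm38 with STAR 2.7.9a after fastp 0.23.1 per the submitters' processing notes, which also name DESeq2. No source used here gives the counting tool, annotation or strand setting. The authors' deposited comparison gives, per the file headers, log2 fold changes, a Wald score, a mean normalised signal and p-values; its direction was set by correlation with the fit here (Spearman rho -0.997 over 18019 genes, which are not independent).

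Counts were filtered (filterByExpr), TMM-normalised and tested with edgeR 4.0.16 (quasi-likelihood, robust; R 4.3.3), with Benjamini-Hochberg adjustment over 18019 genes. SE is the absolute log2 fold change over the square root of F. Log2 CPM used a prior count of 2. Levels per kb divide by the union of GENCODE release M21 exons. Alternatives used DESeq2 1.42.0 and limma 3.58.1. Copies were sought among annotated pseudogenes with BLAST+ 2.17.0 (identity of at least 95% over 200 bases), and Ywhaq-ps1 was added by its name. The fit was tested on simulated data. Counts cover counting error only. Members, lists and tests were chosen with earlier results of these data known. Named genes are the members, Bad, in each of 4 pathway lists those that passed and the 2 with the smallest p, and the 2 most alike in pattern per member (mean log2 CPM of at least 1, no predicted models, pseudogenes or copies); Krt16, Krt6a, Krt17, Lor and Calml3 are squamous markers named after their values were seen. One gene named by likeness to Ywhab is not reported here.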

Additional observations from a re-analysis of the deposited data

Results flagged for a closer look

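Sfn in Bad+/+ tumour 4 stood far from the other Bad+/+ tumours, at 263 CPM where the other 5 lay between 58.6 and 93.2 CPM. The summed squamous keratinocyte markers of the same tumour stood apart likewise, at 1805 CPM where the other 5 lay between 204 and 468 CPM. In both, the gap to the next tumour, divided by the range of the group, exceeded Dixon's 95% critical value for 6 tumours, at 0.831 for Sfn and 0.835 for the markers. These were 2 of 22 groups screened, and chance alone flags about 1 group in 20. The 2 flagged values come from 1 tumour and are not independent. Skeletal muscle markers of that tumour carry no flag although their gap was wide, so a missing flag does not mean that a value lay with its group. These muscle markers summed to 1282 CPM there and to between 2.88 and 24.0 CPM in the other 5 Bad+/+ tumours. No Bad3SA value was flagged. The adipocyte markers of Bad3SA tumour 5 likewise carry no flag although they stood apart. They summed to 449 CPM where the other 5 Bad3SA tumours lay between 196 and 269 CPM.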

How the results depend on the processing

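No member was called under any of the 22 fits, the smallest adjusted p being 0.237 for Sfn without Bad+/+ tumour 4, and 130 of the 154 member values under alternatives kept their sign. Signs turned for estimates near 0. With end-point age as a covariate Ywhae was 0.0072, Ywhag 0.039, Ywhaq 0.021 and Ywhaz 0.039; with limma voom Ywhag was 0.037 and Ywhaz 0.015; without Bad3SA tumours 4, 5 and 6 together, chosen after seeing the data, Ywhab was 0.0028, Ywhag 0.10, Ywhaq 0.077 and Ywhaz 0.11. The cause was not tested. With a single tumour left out the log2 fold change ran from -0.079 to 0.013 for Ywhab, -0.12 to 0.035 for Ywhae, -0.18 to -0.014 for Ywhag, -0.028 to 0.11 for Ywhah, -0.19 to -0.038 for Ywhaq, -0.18 to -0.033 for Ywhaz and -0.11 to 0.63 for Sfn. The number of genes differing by genotype was 249, and 863 with DESeq2, 579 with limma voom, 163 with at least 1 CPM in 6 tumours, 73 with end-point age, 151 without Bad3SA tumours 4, 5 and 6, and 147 (without Bad+/+ tumour 5) to 315 (without Bad+/+ tumour 4) with 1 tumour left out. By the longest transcript the shares were 11.6% for Ywhab, 7.06% for Ywhag, 10.6% for Ywhah and 7.58% for Ywhaq. With the title number as a replicate block 105 genes differed and the estimate of Sfn was 0.27. Deviations of tumours with the same number correlated only between -0.271 and 0.283, which cannot settle whether the numbers pair the mice. All members lay far above the floor set by 3 counts per tumour, and no comparison was made of how depth, spread and the number of tumours limit the estimates.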
